A study of Mus musculus with 4 samples.

Results

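The genes of foreign-compound metabolism were examined in cells sorted from the regenerated mouse olfactory epithelium. They were chosen by symbol alone, as every row of the count tables named for the cytochrome P450 families Cyp1 to Cyp4, the UDP-glucuronosyltransferases (Ugt1a, Ugt2a, Ugt2b), the cytosolic glutathione transferases (Gst), the flavin monooxygenases (Fmo), the sulphotransferases (Sult), the carboxylesterases (Ces), the epoxide hydrolases (Ephx) or the aldehyde oxidases (Aox). Of 23337 symbols, 173 matched, and 79 of these had a level above 1 CPM (counts scaled to 1e+06 gene counts of the library) in at least 2 samples and were tested.

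RNA-seq had been performed on Tomato-positive cells of 4 mice, 1 mouse per sample. Controls were Lmnb1+/- and mutants were Lmnb1-/-, with 2 samples of each, so the controls also carried 1 deleted allele of the lamin B1 gene. Cre was driven by the Keratin 5 promoter, which among cells of the epithelium is active in horizontal basal cells, and the same Cre switched on the R26 Ai9 Tomato reporter. The sorted cells were therefore recombined basal cells and their progeny from a mosaic tissue, on a background given as Mixed. Methimazole, which destroys the epithelium, had been given to all mice at 50 mg/kg, and recovery lasted 4 weeks. The samples form 2 experimental groups, each with 1 control and 1 mutant alike in sex, age, parents, treatment and library work. The submitters' design text states that parents, age, sex and treatment differ between the groups, although the labels give the same dose and recovery for both. The age and sex of each mouse are not given in the labels. The number in a sample name is its experimental group, and control 1 and mutant 1 thus form a pair.

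The olfactory epithelium is rich in enzymes that metabolise inhaled chemicals and odorants, and the sustentacular cells and Bowman's glands, rather than the neurons, hold most of them. Monooxygenases first add or expose a reactive group, carboxylesterases and epoxide hydrolases cleave esters and epoxides, and transferases then attach glucuronate, sulphate or glutathione, which makes the product soluble and inactive as an odorant. Methimazole is itself a substrate of flavin monooxygenases. Cyp2a5, Cyp2g1, Cyp2f2 and Ugt2a1 are the enzymes best known from olfactory tissue.

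The stretch of 100 bases that ends at the transcript start is shown for the most abundant P450 gene (Cyp2a5), the most abundant transferase gene (Ugt2a1) and the gene lowest in mutants relative to controls among those that passed the test (Cyp2j12). The sequences are from RefSeq (GRCm38.p6) and read 5′ to 3′ on the strand of the gene. Capitals mark a TATA box (TATAAA) in Cyp2a5, a partial site of nuclear factor I (TTGGCA) in Ugt2a1 and the core of the xenobiotic response element (GCGTG), which the aryl hydrocarbon receptor binds, in Cyp2j12. Cyp2a5 lies at chr7:26835239-26835338 on the plus strand, Ugt2a1 at chr5:87490872-87490971 on the minus strand and Cyp2j12 at chr4:96141153-96141252 on the minus strand.
Cyp2a5: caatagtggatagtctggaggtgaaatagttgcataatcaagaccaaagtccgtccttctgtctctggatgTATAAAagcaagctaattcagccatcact
Ugt2a1: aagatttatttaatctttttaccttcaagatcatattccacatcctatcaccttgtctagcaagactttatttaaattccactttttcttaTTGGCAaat
Cyp2j12: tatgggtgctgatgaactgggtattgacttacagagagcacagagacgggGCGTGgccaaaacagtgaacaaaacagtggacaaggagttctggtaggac

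Promoters of 63 tested enzyme genes were found in the RefSeq table, and motifs were sought on both strands of the 250 bases upstream of the start. GCGTG was present in 28.6% of them and in 28.2% of all 27025 promoters. TTGGCA was present in 15 of 63 (23.8%) against 12.5% of all promoters, and TATAAA in 19.0% against 13.0%. The antioxidant response element, searched as TGACNNNGC, was present in 2 of 63 (3.17%) against 10.1%. TTGGCA and TATAAA were thus more frequent, and TGACNNNGC less frequent, among the enzyme genes as a description. A match marks letters only and was not linked to the levels.

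The enzyme genes together took 1.14% of gene counts in control 1 and 1.52% in its paired mutant, and 2.23% in control 2 and 2.80% in mutant 2. Their share was higher in the mutant of each pair, and higher in both samples of experimental group 2 than in either of group 1. The log2 ratio of the summed CPM, mutant over control, was 0.42 in group 1 and 0.33 in group 2, whereas group 2 over group 1 was 0.97 in controls and 0.88 in mutants. Cyp2 genes held the largest part, with summed levels of 4186 CPM in control 1, 5729 in mutant 1, 10629 in control 2 and 13598 in mutant 2. Gst, Ugt2 and Sult genes followed, with Ces genes in group 1 and Fmo genes in group 2, in an order that differed between samples. The Ugt1a and Cyp3 genes tested were scarce. In bulk RNA from sorted cells, fewer cells of a type and less RNA per cell cannot be told apart.

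**Figure D1:**
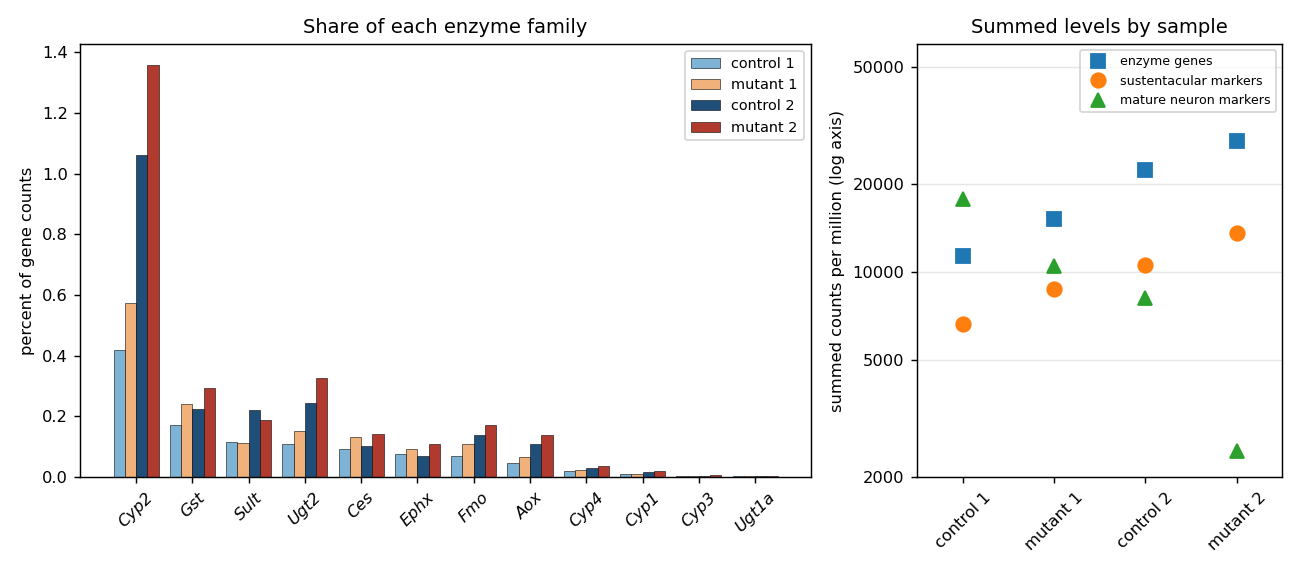
Left, percent of gene counts (linear axis from 0) taken by each enzyme family in each of the 4 samples; right, summed CPM (log axis) of the 173 enzyme genes, of 14 sustentacular cell markers and of 14 mature neuron markers, 1 point per sample. The Cyp2 bars rise from 0.419% in control 1 to 1.36% in mutant 2, and the neuron markers are highest in control 1 and lowest in mutant 2, the reverse of the enzymes.

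Compared per kilobase of exon, so that levels of different genes can be set side by side, the 4 olfactory enzymes had the highest mean levels over the 4 samples of the 172 genes with an exon length. Within experimental group 1, Gstm1 exceeded Ugt2a1 (477 against 408 in control 1 and 638 against 575 in mutant 1). Cyp2a5, which hydroxylates coumarin and nicotine, had a mean level of 1789 CPM per kilobase and ranged over the samples from 798 to 2779. Cyp2g1, a P450 confined almost entirely to nasal mucosa, had a mean of 1321 and ranged from 597 to 2368. Cyp2f2, which activates naphthalene, had a mean of 855 (524 to 1191), and Ugt2a1, which conjugates odorants with glucuronate, had a mean of 776 (408 to 1226). These 4 ranges overlap, but the values of 1 sample come from the same library and can be compared within it. Cyp2a5 exceeded Cyp2g1 in every sample. The order of the other neighbours differed between samples. Cyp2f2 exceeded Cyp2g1 in mutant 1 (883 against 729). Ugt2a1 exceeded Cyp2f2 in control 2 (897 against 823) and mutant 2 (1226 against 1191). Gstm1 (mean 631), Fmo6 (472), Ephx1 (426), Sult1c1 (417), Ces1d (403) and Gstm2 (255) came next on the same scale. Cyp2a5, Cyp2g1 and Cyp2f2 lie in 1 cluster with Cyp2a4, Cyp2b10 and Cyp2s1 between 25802475 and 27133660 on chromosome 7 (mm10).

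Near-identical genes limit some of these levels. HTSeq sets aside reads with more than 1 alignment, and 37.0% of the 50-base windows of Cyp2a5 transcripts also occur in transcripts of other genes, 28.1% in Cyp2a4 alone. For Cyp2a4 the share was 38.8%, for Cyp4a12b 49.4% and for Ugt1a6a 52.1%. Ugt2a1 and Ugt2a2, whose gene models share exons, had 97.0% and 93.6% of their windows in common with other genes, so their counts depend on how the authors' annotation assigned those exons.

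Of the 12 genes of highest CPM, 6 were higher in both samples of group 2 than in either of group 1 (Cyp2a5, Cyp2g1, Ugt2a1, Fmo6, Aox3l1 and Sult1c1). In the other 6 the genotypes did not overlap, with mutants above controls for Cyp2f2, Ces1d, Gstm1, Ephx1 and Gstm2 and below them for Sult1d1. Over all tested genes, both samples of group 2 lay above both of group 1 for 29.7%. Both mutants lay above both controls for 15.2% of all tested genes and below them for 10.6%. Cyp2a5 had 1654 CPM in control 1 and 2173 in mutant 1, against 5243 in control 2 and 5761.5 in mutant 2. Cyp2g1 had 1281 and 1564 CPM in control 1 and mutant 1, and 3410 and 5079 in control 2 and mutant 2. Ugt2a1 had 1048 and 1477 CPM in group 1, and 2305 and 3150 in group 2, again control first. For these 3 genes the mutant lay above the control of its own pair, and both samples of group 1 lay below both of group 2. Cyp2f2 differed from them, with 1061 and 1667 CPM in controls 1 and 2 and 1788 and 2412 CPM in mutants 1 and 2, so that both mutants lay above both controls.

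**Figure D2:**
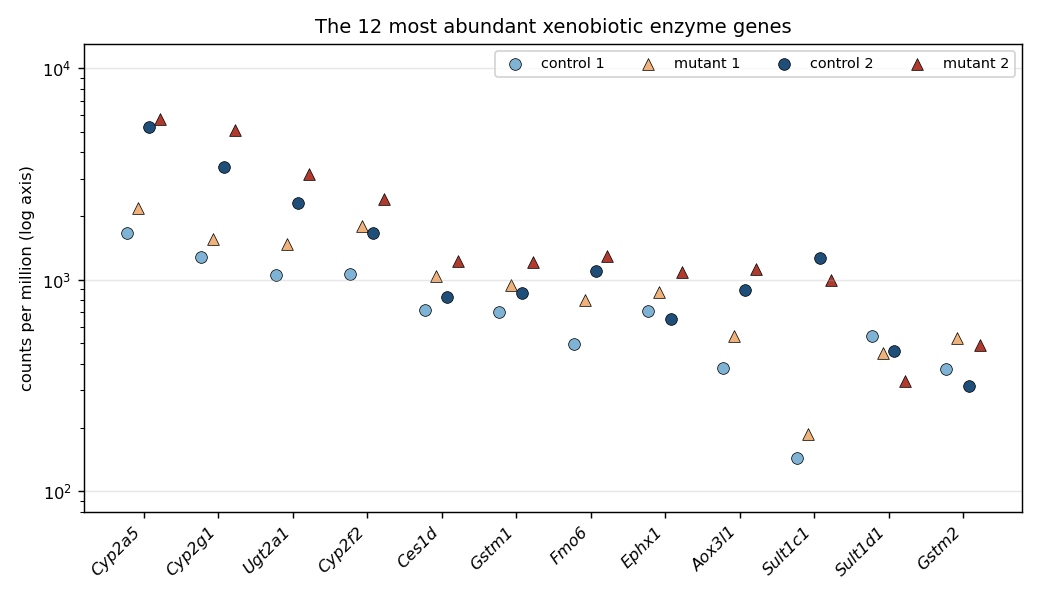
Levels of the 12 most abundant enzyme genes in CPM (log axis), 1 point per sample, circles for controls, triangles for mutants, light for experimental group 1 and dark for group 2. Cyp2a5, Cyp2g1 and Ugt2a1 separate by experimental group, Cyp2f2 runs from 1061 in control 1 to 2412 in mutant 2, and Sult1c1 runs from 143 in control 1 to 1266 in control 2.

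To ask which enzyme genes depend on lamin B1, mutants were compared with controls in an edgeR model with genotype and experimental group, fitted to all 15438 tested genes. Of the 79 enzyme genes, 5 rose and 3 fell in mutants at a Benjamini-Hochberg adjusted p under 0.05 in the likelihood-ratio test, and 71 did not pass. Over all genes 1.28% rose and 4.3% fell, so the enzyme genes that fell (3.8% of the tested) were near the background and those that rose (6.33%) were above it. At an unadjusted p under 0.05, 13 were higher (16.5%, against 6.32% of all genes) and 5 were lower (6.33%, against 9.62%).

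The shift of the enzyme genes as a whole was small and mostly upward. Of the 79 genes, 60 had a positive log2 fold change (75.9%, against 48.9% of all genes), and 49 had a positive ratio in both experimental groups (62%, against 32.3%). Their median log2 fold change was 0.27, against -0.01 for all tested genes, and the median log2 ratio within each pair was 0.33 in group 1 and 0.32 in group 2. Both mutants lay above both controls for 24 genes (30.4%, against 15.2% of all genes) and below them for 3 (3.8%, against 10.6%). The direction was shared by most families. All 5 Fmo genes and all 4 Aox genes tested had a positive fold change, as had 14 of 17 Gst, 6 of 8 Ces and 8 of 10 Cyp4 genes, while Cyp2 genes were split, with 8 positive and 6 negative.

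Among the oxidising enzymes, Cyp3a13 and Aox1 rose. Cyp3a13, the one Cyp3 gene tested, belongs to the family that oxidises steroids and many drugs. Its level was 26.2 and 32.0 CPM in controls 1 and 2 and 46.2 and 62.6 CPM in mutants 1 and 2 (log2 fold change 0.84, SE 0.19, edgeR adjusted p = 0.000687). The mutants and controls did not overlap. Aox1, an aldehyde oxidase with a molybdenum cofactor, was scarce, at 1.69 and 6.50 CPM in the controls and 13.7 and 11.6 CPM in the mutants of groups 1 and 2. The estimate of 1.84 on the log2 scale had a wide error (SE 0.53, edgeR adjusted p = 0.0259), and its ratio was 2.89 in group 1 and 0.83 in group 2.

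Cyp2j12 was the sole P450 gene that fell. It belongs to the Cyp2j family, whose members epoxidise arachidonic acid. Its level was 15.3 CPM in control 1 and 14.4 in control 2, against 3.61 in mutant 1 and 6 in mutant 2 (log2 fold change -1.73, SE 0.42, edgeR adjusted p = 0.00295). The controls were nearly equal and the mutants were far below both. Its neighbours in the chromosome 4 cluster did not follow, as Cyp2j6 had a log2 fold change of 0.18 (edgeR adjusted p = 0.768) and Cyp2j9 of 0.75 (edgeR adjusted p = 0.101). Ephx4, an epoxide hydrolase family member, had 42.8 CPM in control 1 and 30.3 in mutant 1, and 28.3 in control 2 and 9.64 in mutant 2 (log2 fold change -1.06, SE 0.27, edgeR adjusted p = 0.00478). It was lower in each pair, although mutant 1 lay just above control 2. Ephx1, the microsomal epoxide hydrolase, was higher in each mutant, at 708 and 654 CPM in controls 1 and 2 and 878 and 1084 in mutants 1 and 2, and did not pass in this test (log2 fold change 0.465, SE 0.28, edgeR adjusted p = 0.436).

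Among the transferases, Gsta3 and Sult1b1 rose and Sult4a1 fell. Gsta3, an alpha-class glutathione transferase that detoxifies aflatoxin epoxide, had 99.6 CPM in control 1 and 171 in mutant 1, and 177 in control 2 and 279 in mutant 2 (log2 fold change 0.66, SE 0.20, edgeR adjusted p = 0.0234). Sult1b1, which sulphates phenols and thyroid hormone, had 12.0 and 23.6 CPM in control 1 and mutant 1, and 61.5 and 84.9 CPM in control 2 and mutant 2 (log2 fold change 0.65, SE 0.19, edgeR adjusted p = 0.0175). Both were higher in the mutant of each pair, but control 2 exceeded mutant 1. Sult4a1 is a sulphotransferase of neurons with no well established substrate. It had 293 CPM in control 1 and 226 in mutant 1, and 147 in control 2 and 81.4 in mutant 2 (log2 fold change -0.67, SE 0.21, edgeR adjusted p = 0.0328), so control 2 lay below mutant 1 although each mutant lay below its own control.

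**Figure D3:**
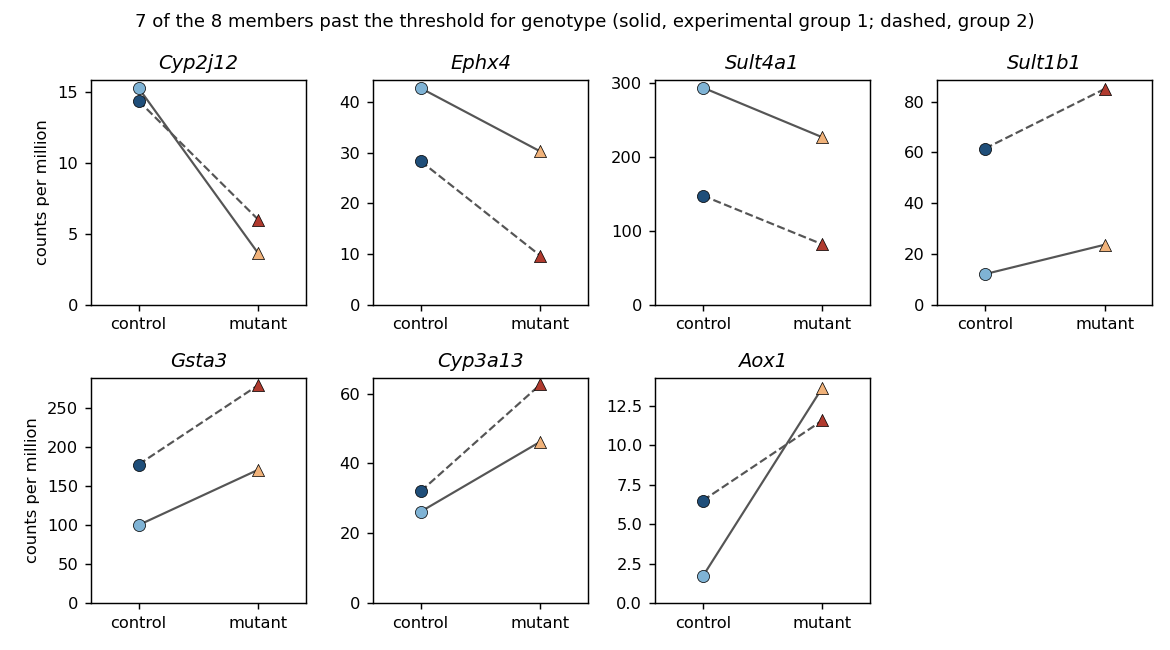
CPM (linear axes from 0) of 7 of the 8 enzyme genes that passed the test for genotype, with a line joining the control and the mutant of experimental group 1 (solid) and of group 2 (dashed), 1 point per sample. Each pair of lines runs the same way, for example down from 15.3 to 3.61 CPM in group 1 for Cyp2j12 and up from 26.2 to 46.2 CPM in group 1 for Cyp3a13.

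The 4 olfactory enzymes did not pass for genotype in this test. Their log2 fold changes were 0.59 (SE 0.29, 95% interval 0.02 to 1.16, edgeR adjusted p = 0.292) for Cyp2f2, 0.42 (SE 0.29, -0.16 to 0.99, edgeR adjusted p = 0.557) for Ugt2a1, 0.38 (SE 0.31, -0.23 to 0.98, edgeR adjusted p = 0.647) for Cyp2g1 and 0.21 (SE 0.31, -0.40 to 0.82, edgeR adjusted p = 0.850) for Cyp2a5. The point estimates were positive in all 4, and the intervals of Cyp2a5, Cyp2g1 and Ugt2a1 include both a decrease and an increase. Cyp2f2 passed under both other tests run on the same model (edgeR quasi-likelihood adjusted p = 0.0162, DESeq2 adjusted p = 3.34e-05), as did Ugt2a1 (0.0379 and 0.00486) and Ces1d (0.038 and 0.00102), a carboxylesterase at 716 and 829 CPM in controls 1 and 2 and 1039 and 1231 CPM in mutants 1 and 2. Cyp2g1 passed in DESeq2 only (adjusted p = 0.0355), and Cyp2a5 passed in none of the 3 tests.

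Several other abundant enzyme genes had higher values in the mutant of each pair without passing here. Gstm1, the main mu-class glutathione transferase, had 703 and 868 CPM in controls 1 and 2 and 940 and 1207 CPM in mutants 1 and 2 (log2 fold change 0.39, SE 0.27, edgeR adjusted p = 0.541). Its neighbour Gstm2 had 378 and 313 CPM in the controls and 530 and 493 CPM in the mutants (0.51, SE 0.24, edgeR adjusted p = 0.259). In both genes, as in Ces1d and Ephx1, the mutants lay above both controls and the experimental groups overlapped. Fmo6, the most abundant flavin monooxygenase gene here, had 494 CPM in control 1 and 806 in mutant 1, and 1097 in control 2 and 1299 in mutant 2 (0.42, SE 0.28, edgeR adjusted p = 0.510). Aox3l1, the most abundant aldehyde oxidase gene, had 383 and 542 CPM in group 1 and 896 and 1117 CPM in group 2, control first (0.35, SE 0.26, edgeR adjusted p = 0.589). These last 2 genes showed the pattern of Cyp2a5 and Ugt2a1, with the pairs further apart than the samples within a pair. Cyp1a2 (-0.10, SE 0.18, edgeR adjusted p = 0.888), Cyp4v3, a fatty acid hydroxylase (0.23, SE 0.16, edgeR adjusted p = 0.562), and Ugt1a6a, which conjugates phenols (0.41, SE 0.29, edgeR adjusted p = 0.561), did not pass either.

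A further 3 genes did not pass but had an unadjusted p under 0.01. Ces1e had 25.9 and 44.0 CPM in control 1 and mutant 1 and 48.3 and 63.2 CPM in control 2 and mutant 2 (log2 fold change 0.52, SE 0.18, edgeR adjusted p = 0.0754). Cyp2j9 had 13.1 and 15.9 CPM in controls 1 and 2 and 20.6 and 31.1 CPM in mutants 1 and 2, and the theta-class transferase gene Gstt3 had 43.5 and 63.4 CPM in controls and 66.1 and 82.1 CPM in mutants (0.43, SE 0.17, edgeR adjusted p = 0.120). All 3 were higher in the mutant of each pair.

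The choice of test decided most calls among abundant enzymes. The quasi-likelihood test gave 6 higher and 2 lower enzyme genes (0.758% and 3.2% of all genes), and DESeq2 gave 14 higher and 3 lower (1.14% and 3.45%), with 5 genes in common with the likelihood-ratio test in each case. Cyp3a13, Gsta3 and Sult4a1 passed under all 3. Aox1, Ephx4 and Sult1b1 were lost under the quasi-likelihood test (adjusted p = 0.107, 0.0501 and 0.0643). DESeq2 gave no adjusted p for Aox1 and Cyp2j12, and Sult1b1 did not pass there (adjusted p = 0.0857). It added Ephx1, Gstm1 and Gstm2 (adjusted p = 0.0174, 0.0174 and 0.00335), among others. In a model without experimental group, 0 enzyme genes passed (0% of all genes lower and 0.0389% higher, edgeR likelihood-ratio test) and 2 had an unadjusted p under 0.05. With 2 samples a genotype, an exact two-sided permutation test of a single gene cannot go below p = 0.333.

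Conjugation genes in 1 short cluster on chromosome 5 (87459490 to 87591594, mm10) differed in direction. Ugt2a1, Ugt2a2, Sult1b1 and Sult1e1 had positive log2 fold changes. Sult1d1, a sulphotransferase of catecholamines and the second most abundant Sult gene by CPM, had 539 and 458 CPM in controls 1 and 2 and 448 and 331 CPM in mutants 1 and 2. Both mutants lay below both controls, and the change of -0.425 (SE 0.24) did not pass here (edgeR adjusted p = 0.405) and did in DESeq2. The tested genes all shared a sign in some other clusters. Among these were the 4 Aox genes on chromosome 1 (0.07 for Aox4 to 1.84 for Aox1). The 4 Ces2 genes on chromosome 8 (0.07 for Ces2g to 1.05 for Ces2f) were another case.

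Experimental group was compared in the same model, as a measure of how far these enzymes vary between the groups for reasons other than genotype. The traits that the design text says differ between the groups (sex, age, parents and treatment) cannot be told apart. Nor can they be told apart from batch, which the paper names among the differences between its sample groups. Of the 79 enzyme genes, 29 were higher in group 2 (36.7%, against 17.7% of all genes), 8 were lower (10.1%, against 14% of all genes) and 42 did not pass. The median log2 difference was 0.33, against -0.03 for all tested genes. Both samples of group 2 lay above both of group 1 for 29 enzyme genes (36.7%, against 29.7% of all genes) and below them for 17 (21.5%, against 32.3%). Cyp2a5, Cyp2g1 and Ugt2a1 were among the higher genes, by 1.56 (SE 0.31, edgeR adjusted p = 1.15e-05), 1.585 (SE 0.31, edgeR adjusted p = 8.78e-06) and 1.14 (SE 0.29, edgeR adjusted p = 8.36e-04) on the log2 scale. Cyp2f2 did not pass (0.57, SE 0.29, edgeR adjusted p = 0.122).

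Sulphotransferases and a few P450 genes differed most between the groups. Sult1c1 had 143 CPM in control 1 and 187 in mutant 1, against 1266 in control 2 and 999.5 in mutant 2, a log2 difference of 2.81 (SE 0.28, edgeR adjusted p = 1.60e-18) beside a genotype difference of -0.03 (SE 0.28, edgeR adjusted p = 0.986). Sult1b1 was higher in group 2 by 2.13 (SE 0.19, edgeR adjusted p = 3.61e-24), more than its rise with genotype. Cyp4a12b, a fatty acid omega-hydroxylase, had 4.98 and 13.8 CPM in control 1 and mutant 1, and 57.7 and 53.0 CPM in control 2 and mutant 2 (log2 difference 2.75, SE 0.30, edgeR adjusted p = 1.01e-14). These 3 genes differed little or moderately within a pair and by far more between the pairs. Sult6b1 (2.09, edgeR adjusted p = 1.08e-08) and the scarce Cyp2a4 (3.04, SE 0.84, edgeR adjusted p = 0.00447) were the other genes among the 5 of largest increase that passed.

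By family, both Ugt2 genes tested, 2 of 3 Cyp1, 3 of 5 Fmo and 2 of 4 Aox genes were higher in group 2. So were 4 of 9 Sult, 6 of 17 Gst and 1 of 3 Ugt1a genes. For Cyp4, Cyp2 and Ces the counts were 3 of 10, 4 of 14 and 2 of 8. Over all genes 17.7% were higher in group 2. The 8 genes lower in group 2 (10.1% of the tested, against 14% of all genes) comprised 2 each from the Cyp2, Ces and Sult families. The Ephx and Gst families gave 1 each. Ces2e, a carboxylesterase, had 34.7 and 47.5 CPM in control 1 and mutant 1 and 14.0 and 18.5 in control 2 and mutant 2 (log2 difference -1.30, SE 0.23, edgeR adjusted p = 3.44e-07). On the log2 scale the differences were -1.204 for Sult4a1 (edgeR adjusted p = 4.10e-07), -1.202 for Cyp2s1, a P450 that handles retinoids (edgeR adjusted p = 2.96e-04), -1.165 for Sult5a1 (edgeR adjusted p = 2.76e-05) and -1.755 for the scarce Gsto2 (SE 0.65, edgeR adjusted p = 0.0309). Ephx4 was lower in group 2 as well as in mutants (-1.07, edgeR adjusted p = 7.56e-04). Among the genes most abundant in their families, Aox3l1 (1.16), Cyp4v3 (1.02), Fmo6 (0.95) and Cyp1a2 (0.79) were higher in group 2, while Ces1d (0.26), Ephx1 (0.12), Gstm1 (0.36), Cyp3a13 (0.39) and Ugt1a6a (-0.05) did not pass. Cyp1a2, a target of the aryl hydrocarbon receptor, had 91.8 and 90.1 CPM in control 1 and mutant 1 and 158 and 151 in control 2 and mutant 2.

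**Figure D4:**
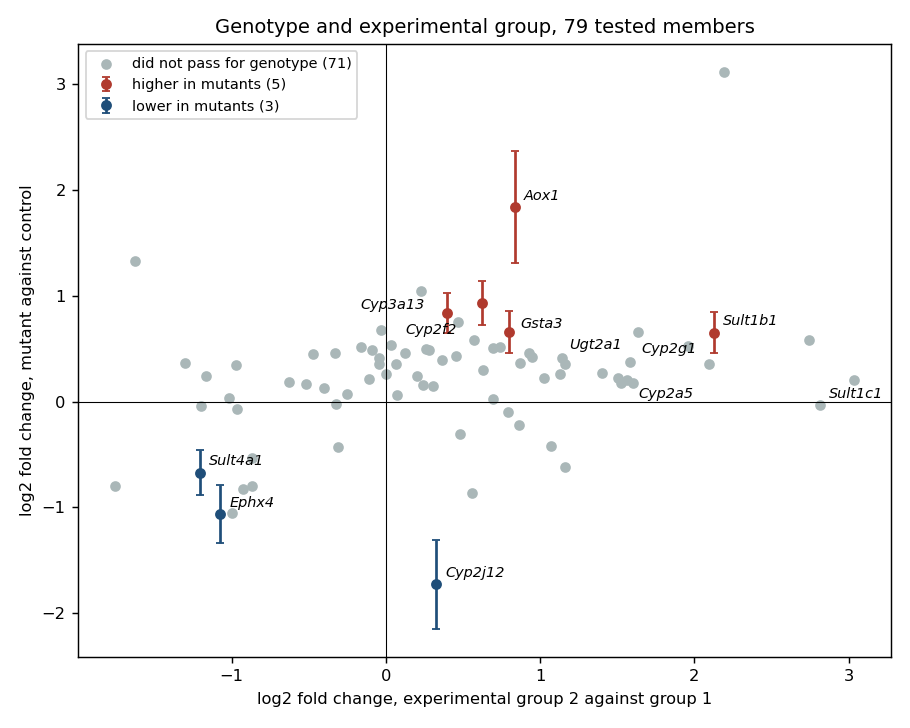
Log2 fold change of each of the 79 tested enzyme genes, mutant against control (vertical) and experimental group 2 against group 1 (horizontal), with bars of 1 SE in the vertical direction for the 8 genes that passed for genotype. Cyp2a5, Cyp2g1, Ugt2a1 and Sult1c1 lie far to the right and near or a little above 0 vertically, and Cyp2j12 lies lowest at -1.73.

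Few of the genes that feed or control these enzymes passed for genotype, as few of all tested genes did (1.28% higher and 4.3% lower). Of 11 tested regulators, among them the aryl hydrocarbon receptor gene Ahr and the antioxidant regulator gene Nfe2l2, 0 passed (edgeR likelihood-ratio test, median log2 fold change 0.03), and Nr1i2 and Nr1i3, which encode the xenobiotic receptors PXR and CAR, were at or below 1.17 CPM in every sample. Among 7 electron donors of P450 enzymes 1 was lower (Cyb5r1, -0.64, edgeR adjusted p = 0.00656), and Por, the P450 reductase, had 501 and 546 CPM in control 1 and mutant 1 and 776 and 925 in control 2 and mutant 2, with a genotype difference of 0.13 (edgeR adjusted p = 0.901). None of 8 genes of haem synthesis passed, and none of 15 of glutathione supply. None of 16 transporters passed, and none of 7 genes that supply sulphate and glucuronate. Of those 7, 5 were higher in experimental group 2, including Papss2 and Ugdh, against 17.7% of all genes. Of 19 alcohol, aldehyde and quinone enzymes 1 rose, Adh1, an alcohol dehydrogenase that also oxidises retinol, at 96.0 and 99.8 CPM in controls 1 and 2 and 145 and 153 CPM in mutants 1 and 2 (log2 fold change 0.55, SE 0.18, edgeR adjusted p = 0.0455). Of 7 methyl and acetyl transferases 1 fell, Inmt, at 164 and 60.8 CPM in control 1 and mutant 1 and 30.8 and 25.8 in control 2 and mutant 2 (edgeR adjusted p = 0.0093).

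Cell type markers moved with both comparisons. Over all tested genes 1.28% were higher and 4.3% lower in mutants. All 14 mature neuron markers were lower in mutants (median -1.29), and their summed level was 17818 and 10510 CPM in the control and mutant of group 1 and 8145 and 2456 CPM in those of group 2, the reverse order of the enzyme genes. Of 14 sustentacular markers 1 was higher in mutants (Pax6, 0.50, edgeR adjusted p = 0.0435) and 9 were higher in group 2 (against 17.7% of all genes). Their summed levels were 6632, 8765, 10563 and 13567 CPM in the same order of samples. The carbonyl reductase Cbr2 was the most abundant of these markers. Their medians, 0.25 for genotype and 0.67 for experimental group, lay beside 0.27 and 0.33 for the enzyme genes. Of 12 markers of Bowman's glands 3 were higher in mutants and 1 was lower (Bpifb3, the most abundant of them). Their sum was 3410 and 3194 CPM in control 1 and mutant 1, and 4430 and 3291 CPM in control 2 and mutant 2. This sum was thus lower in the mutant of each pair, unlike the sums of the enzyme genes and of the sustentacular markers. The median genotype log2 fold change of the 12 gland markers was nevertheless 0.25, as for the sustentacular markers. In group 2, 2 gland markers were higher and 3 were lower, against 17.7% and 14% of all genes. Of 9 horizontal basal cell markers 2 were higher (Krt15, Egfr), with sums from 1596 in control 2 to 3269 in mutant 1. The 6 hepatocyte markers, of which 1 was tested, summed to 7.51 to 17.7 CPM, most of it Hp. Alb had 0 counts in 3 samples and 14 counts in mutant 1. The part of cell composition in the enzyme differences was not tested.

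Among progenitor markers 4 of 9 were higher in mutants, against 1.28% of all tested genes. Markers that were lower, against 4.3% of all tested genes, were 2 of 10 for immature neurons, 1 of 8 for microvillar cells and 3 of 6 for ciliated respiratory cells. For ensheathing glia 1 of 7 and for fibroblasts 2 of 6 were lower. None of 12 immune, 5 endothelial or 1 tested red blood cell marker passed, with immune sums from 440 CPM in mutant 1 to 900 in mutant 2. Lmnb1 itself had 20.1 and 18.5 CPM in controls 1 and 2 and 14.7 and 10.04 in mutants 1 and 2, and did not pass (log2 fold change -0.72, edgeR adjusted p = 0.195). Counts were per gene, the deletion removes only exon 2, and the controls carried 1 deleted allele. Whether these points bear on the Lmnb1 counts was not tested. The paper reported loss of lamin B1 by other means. Most Tomato-positive mutant cells were negative by antibody staining. PCR of cDNA from sorted mutant cells, which amplified exons other than the deleted one, showed depleted Lmnb1 transcript.

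The 94 enzyme genes below the filter were near the floor of detection, which at 3 counts was 0.127 to 0.202 CPM. They included 37 of 51 Cyp2 genes, 8 of 9 Cyp3 genes, 8 of 10 Ugt2 genes and 10 of 18 Ces genes, which hold most of the genes typical of liver. Their summed level was 14.5 and 14.0 CPM in controls 1 and 2 and 14.4 CPM in mutant 2, against 44.4 CPM in mutant 1. The last library stood apart, as 45 of these genes had counts there and 0 in the other 3 samples. Its share of reads outside annotated genes was also larger, at 39.4% against 22.1% to 24.9% in the others. This share is of the reads counted to a gene, to no gene or as ambiguous, without unaligned, low-quality or multiply aligned reads. The highest single value was 7.38 CPM for Cyp4f18 in control 1 (175 counts), against 4, 20 and 10 counts in control 2, mutant 1 and mutant 2.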

How the data were processed

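Gene expression was measured by RNA-seq of 4 samples of sorted cells. Per the submitters' notes and methods, rRNA-depleted, DNase-treated RNA was read as single ends, rRNA reads were removed with Bowtie2 2.0.6, and the rest were aligned with TopHat2 2.0.7 to mm10. The authors deposited raw counts per gene from HTSeq (intersection-nonempty). Its version, annotation and strand setting are not given in the sources used here, so reads from overlapping antisense genes may be merged.

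The 5 tally lines per file were left out. Totals were 14833396 to 23704638 gene counts, and 3 counts were taken as detected, which covers counting error only. Genes above 1 CPM in at least 2 samples were fitted in edgeR 4.0.16 (R 4.3.3) with TMM factors, genotype and experimental group, and tested by likelihood ratio with Benjamini-Hochberg adjustment over all 15438 genes at 0.05. The model, filter and test are those of the study, but its printed code kept the tally lines, with which 13560 rows pass the filter. CPM are per total gene counts. Standard errors are Wald errors. Ratios within a pair used log2 CPM with a prior count of 2 and carry no test. The pairing by experimental group comes from the labels, and deviations of same-numbered samples correlated at r = 0.523 across 15438 genes, which are not independent. Each sample is 1 mouse.

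Alternatives were the quasi-likelihood test, DESeq2 1.42.0, no replicate block, RLE factors, other filters, tally lines kept, samples left out, and a background per exon length subtracted from mutant 1. Exon lengths and coordinates were from GENCODE of the same build, where 98.01% of symbols and 172 of the 173 enzyme symbols were matched, 4 of these by an older symbol. Genes named were the 4 olfactory enzymes, those past the threshold or with an unadjusted p under 0.01 for genotype, the 12 of highest mean CPM, the highest of each family, and the 5 of largest change per direction among those past the threshold for experimental group. Ugt2a2, Sult1e1, Cyp2j6, Aox4, Ces2f, Ces2g, Cyp4f18, Por, Papss2, Ugdh, Nr1i2 and Nr1i3 were named after their values were seen. The result of 1 enzyme gene past the threshold for genotype is not reported here, though counts include it. The enzyme genes, marker lists and pathway lists were chosen with earlier results of these data known.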

Additional observations from a re-analysis of the deposited data

Results flagged for a closer look

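In 20 of the 79 tested enzyme genes the log2 ratio of mutant over control had opposite signs in the 2 experimental groups, among them 4 of the genes named by rule. The ratio was positive in both groups for 49 (62%, against 32.3% of all tested genes) and negative in both for 10. The share of all genes with opposite signs was not counted. Each ratio rests on 1 mutant and 1 control, and the difference between the groups was not tested. Cyp4a12b had a ratio of 1.39 in group 1 and -0.12 in group 2. Cyp2a4, at 0.295 to 5.24 CPM, had 1.16 and -0.68. Sult1c1 had 0.33 and -0.34, and Cyp2s1 had -0.33 and 0.32. Cyp4a12b, Cyp2a4 and Sult1c1 were also among the genes that differed most between the experimental groups, with lower levels in group 1.

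Of the 94 enzyme genes below the filter, 82 had at least 3 counts in mutant 1. The number was 14 and 25 in controls 1 and 2 and 26 in the other mutant. In mutant 1 the 3748 genes without a count in the other 3 samples had 3.54 counts per kilobase of exon.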

How the results depend on the processing

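All 8 enzyme genes called for genotype passed with RLE factors, with no filter, with a CPM above 1 in all 4 samples and with tally lines kept; subtracting the background from mutant 1 lost Sult4a1 (-0.63, edgeR adjusted p = 0.0686). DESeq2 called 14 higher genes. Without the replicate block, and when any 1 sample was left out with no replicate block, 0 lower and 0 higher genes passed. Without a genotype term, 5 enzyme genes were lower and 17 higher in group 2, against 8 and 29 with it. The share of all genes under that model was not counted. The median log2 fold change was 0.277 in DESeq2, 0.276 without the block, 0.278 with RLE factors, 0.292 with tally lines kept and 0.297 after background subtraction. With no filter it was 0.685 (0.141 over all genes), since genes with counts in mutant 1 alone then enter. It ranged from 0.114 to 0.497 over samples left out and was 0.32 or 0.33 for either pair alone. Cyp2a4 turned to -0.49 without the block and -0.022 after background subtraction, and Sult1c1 to 0.009 after the latter. Leaving out samples turned the sign of 17 named genes, whose log2 fold changes then ranged from -0.299 to 1.106 (Aox3l1), -0.43 to 1.182 (Ces2e), -0.528 to 0.385 (Cyp1a2), -1.414 to 1.156 (Cyp2a4), -0.727 to 1.259 (Cyp2a5), -0.644 to 1.374 (Cyp2g1), -0.684 to 0.813 (Cyp2s1), -1.244 to 2.743 (Cyp4a12b), -0.379 to 0.835 (Cyp4v3), -0.097 to 1.079 (Fmo6), -1.787 to 0.514 (Gsto2), -0.701 to 2.177 (Sult1b1), -1.975 to 2.058 (Sult1c1), -1.471 to 0.008 (Sult4a1), -0.411 to 1.011 (Sult5a1), -1.005 to 1.803 (Sult6b1) and -0.242 to 1.136 (Ugt2a1). In those fits a lone sample was assumed to vary like the other genotype, and the experimental groups were unbalanced. With an experimental group left out, 1 mutant and 1 control remained, with no test.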
